A study of Mus musculus with 18 samples.

Results

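Libraries labelled with 2 short hairpin constructs against Rcor2, shRcor2-18 and shRcor2-20, were compared with libraries labelled shScramble during the differentiation of MC3T3-E1 cells, a preosteoblast line from mouse calvaria. The comparison took every library titled 24h or 7d, which gave 8 hairpin libraries and 4 shScramble libraries, 12 of the 18 in the series. Its genes were the protein-coding rows, in mouse gene order, from Mefv to Cbr3 on chromosome 16 (610 of 646 coding rows of that chromosome) and from Ighmbp2 to Gpha2 on chromosome 19 (134 of 699). These 744 of the table's 40620 rows lie in the only stretches used here as carrying reads under their own names. After the filter on low counts 477 of them could be tested, and the other 267 were too low.

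RCOR2 belongs to the CoREST family of corepressors, scaffolds that hold the histone demethylase LSD1 and histone deacetylases together. Transcription factors such as REST, which keeps neuronal genes silent in other tissues, and SNAIL-family zinc finger repressors bring such complexes to their target genes. A short hairpin RNA is processed by the cell's microRNA machinery into a guide strand that silences a matching transcript, and hairpins of different sequence against 1 transcript are used to tell effects of its loss from effects of a single hairpin. Dexamethasone, ascorbic acid and a phosphate source drive preosteoblasts towards a matrix-making state.

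Each of the 3 constructs had 2 samples at 24h and 2 at 7d, 6 groups in all. Per the labels, the cells grew in medium with 10% fetal bovine serum and were differentiated by adding 5 mM beta-glycerophosphate, 50 µg/ml of ascorbic acid and 10 nM of dexamethasone. All 3 groups of a time, shScramble included, carry a hairpin construct, and untransduced cells were not analysed here. The times are those of the titles, since the protocol text names 24 hours and 2 later days but no day 7. The labels do not state whether samples 1 and 2 of a group came from separate cultures, so the p-values cover only the spread seen between them, possibly technical. The 12 libraries held 3504808 to 6139315 counts each, of which 11.3% to 12.1% fell on the 744 genes.

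The row named Rcor2 (ENSMUSG00000024968) lies outside both stretches, so it is given as a row and not as the gene. At 24h it held 236 and 214 CPM, read counts scaled by library size, in the shScramble samples, 221 and 212 in shRcor2-18, and 208 and 218 in shRcor2-20. The values at 7d were 222 and 207, 226 and 207, and 209 and 222 CPM in the same order, so the 3 constructs overlapped at both times. The log2 difference between hairpin and shScramble libraries was -0.03 ± 0.056 (SE; edgeR quasi-likelihood test, unadjusted p = 0.629, adjusted p = 0.998), with a 95% interval from -0.15 to 0.10. Because the reads of this row may come from another gene, it does not check the construct labels.

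The names in the stretches were set against what such cells should express. Of 18 genes for translation, the proteasome and protein folding, 18 had a mean of 20 CPM or more, beside 413 of the 477 tested. Of 18 bone, matrix and stromal genes 16 did, with Lrrc15 at 17.2 CPM and Casr, which was not tested, at 0. This count is near the share over all tested genes, so little is read from it. Of these 18 genes Fstl1, Col8a1 and Ccdc80 had means of 1818, 1273 and 686 CPM, and Chrd and Runx1 58.7 and 61.9 CPM. Apart from Fstl1 these genes, and Sod1 below, are exceptions to the rule for named genes. The row of Sod1, a superoxide dismutase that nearly all cells make, held only 6.41 CPM. The rows of Trp63, a transcription factor of epithelia, and Cd80, a surface ligand that acts on T cells, held 375 and 193 CPM. Names of single rows within the stretches may therefore be wrong. The osteoblast genes Runx2, Sp7, Alpl, Bglap and Col1a1 lie outside them, and their rows were not used.

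The libraries did not group by construct. At both times the 6 libraries formed 3 close pairs across constructs: shScramble 1 with shRcor2-18 1, shScramble 2 with shRcor2-20 1, and shRcor2-18 2 with shRcor2-20 2, where the last digit is the sample number. Distances were taken over 455 stretch genes as chi-square per degree of freedom, which is 1 when libraries differ by counting noise alone. These partners stood at 3.05 to 5.13 at 24h and 5.56 to 7.26 at 7d. Samples of 1 construct stood at 14.4 to 27.2 and at 20.2 to 37.2, as far apart as other pairs of different constructs, at 14.8 to 32.2 and 17.2 to 35.2. No pair agreed within counting noise. Which of the samples shared a culture, a day or a preparation is not given in the sources used here. Whether the construct labels match the libraries could not be checked either. All differences and limits below are therefore between libraries as labelled. Both members of the third partner pair are hairpin libraries, so shScramble has no library in that set, and what sets it apart and the hairpins cannot be fully told apart. Counts and median sizes of each hairpin comparison below are given without and with the 3 partner sets as a block, the partner block. This block comes from the values and not from the labels. Its sets were picked for closeness in these same counts, so tighter limits and smaller sizes with it are partly built in.

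**Figure D1:**
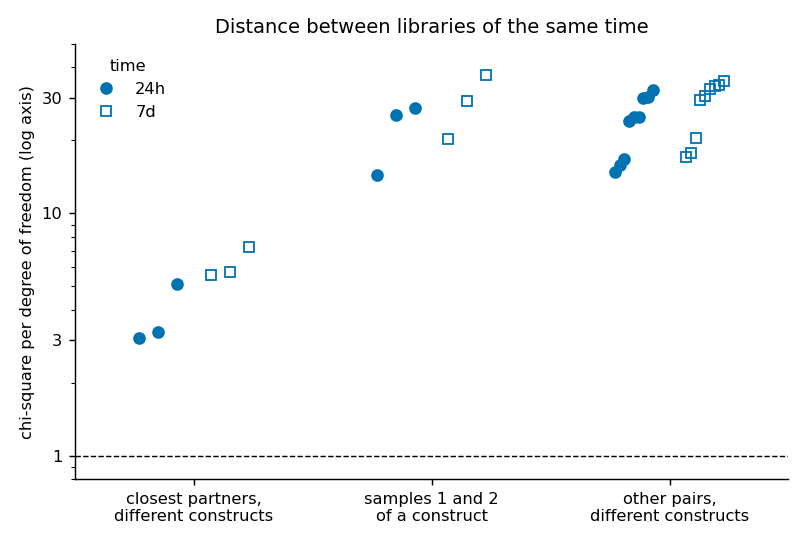
Chi-square per degree of freedom between libraries of the same time over 455 stretch genes (log axis), each point 1 pair, filled at 24h and open at 7d; the dashed line at 1 marks counting noise alone. The closest partners, which carry different constructs, sit at 3.05 to 7.26, and samples of the same construct sit at 14.4 to 37.2, among the other pairs.

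None of the 477 genes passed the test for a difference between the hairpin and shScramble libraries, and most differences were small. With construct and time as terms, edgeR called 0 genes at an adjusted p of 0.05, against 0% of all 11724 rows tested, and DESeq2 and limma also called 0 of the 477. At an unadjusted p under 0.05 there were 2 genes higher and 5 lower, 1.47% of the 477 against 3.09% of all rows. DESeq2 gave 9 genes and limma 7 at that level, beside 491 and 335 of all rows. The median size of the difference was 0.078 (log2), the median SE was 0.12, and 90% of genes lay within 0.28. The median signed difference was -0.01 over the 477 genes and -0.01 over all rows. With the partner block the median size was 0.048, 0 genes were called and 5 had an unadjusted p under 0.05 (310 of all rows). Leaving out single libraries moved the number at that p over all rows, 362 with all 12 libraries. It was 566 of 12695 rows without shRcor2-18 sample 1 at 24h, and 479 of 12709 without shScramble sample 2 at 7d. The number among the 477, 7 with all 12 libraries, moved too. It was 22 without shRcor2-18 sample 1 at 24h, 19 without shScramble sample 2 at 7d, 18 without shRcor2-18 sample 1 at 7d, and 13 and 14 without shRcor2-20 sample 1 at 24h and at 7d, with 5 to 8 without each of the other 7 libraries and 0 calls in all 12 fits.

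The same fit did call genes for time. From 24h to 7d, averaged over the constructs, edgeR called 42 of the 477 genes higher and 22 lower, against 5.93% of all rows in either direction, and 157 had an unadjusted p under 0.05 (19.9% of all rows). The median size of that change was 0.18 on the log2 scale. The fit thus called 64 stretch genes for time and 0 for the hairpins. Its median SE was 0.11 for the first contrast and 0.12 for the second. It treats the 24h and 7d libraries as independent, so these SEs do not show equal precision. With each construct and sample number as a block over both times, edgeR called 20 of the 477 for time, and 158 had an unadjusted p under 0.05. The median SE for time was then 0.095. For the hairpins it was 0.14 when the 24h and 7d libraries of a construct and sample number were summed.

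**Figure D2:**
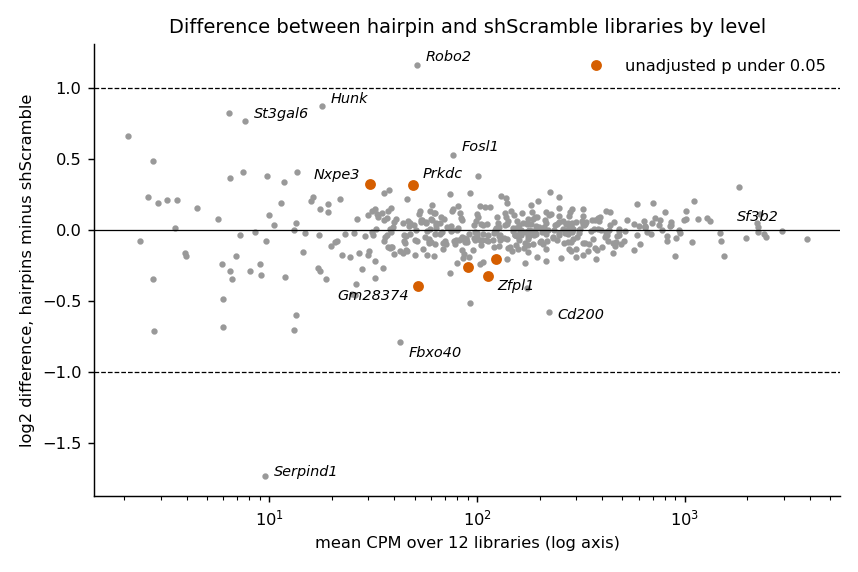
Log2 difference of the hairpin from the shScramble libraries against mean CPM (log axis) for the 468 tested genes with a mean of 2 CPM or more, each point 1 gene; dashed lines mark 2-fold. Orange points are the 6 drawn genes with an unadjusted p under 0.05, none of which passed adjustment, and Robo2 and Serpind1 lie outside the 2-fold lines.

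The 7 genes with an unadjusted p under 0.05 were Prkdc and Nxpe3, higher, and Zfpl1, Ppil2, Anks3, Gm28374 and Gm5678, lower. All are given here as differences that did not pass adjustment. Zfpl1, which encodes a zinc finger protein of the Golgi membrane (ENSMUSG00000024792, chromosome 19), had the lowest p. At 24h it stood at 127 and 114 CPM in shScramble, 99.1 and 94.3 in shRcor2-18, and 84.1 and 86.7 in shRcor2-20, so all 4 hairpin libraries were below both shScramble libraries. At 7d the values were 154 and 124, 140 and 121, and 101 and 114 CPM, and sample 1 of shRcor2-18 lay above sample 2 of shScramble. The difference was -0.32 ± 0.084 (SE, log2; edgeR unadjusted p = 0.00310, adjusted p = 0.998), with a 95% interval from -0.51 to -0.14. It was -0.31 ± 0.073 with the partner block. Over 23 other settings it ran from -0.39 to -0.27, with an unadjusted p under 0.05 in 23 and a call in 0. The row lies 8 coding genes before Gpha2, the end of the stretch. Gm28374, 10 coding genes before that end, stood at -0.39 ± 0.15, and at -0.42 with the partner block.

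Ppil2 encodes a cyclophilin-like prolyl isomerase with a U-box domain (ENSMUSG00000022771, chromosome 16). It had 89.4 and 92.1 CPM in shScramble at 24h, and the 4 hairpin libraries spread around them, from 73.3 CPM to a highest value in sample 2 of shRcor2-18 just above both. At 7d shScramble had 117 and 108 CPM, shRcor2-18 had 82.5 and 74.9, and shRcor2-20 had 86.7 and 94.2, with no overlap. The difference over both times was -0.26 ± 0.10 (edgeR unadjusted p = 0.0248, adjusted p = 0.998), and -0.31 ± 0.12 with the partner block.

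Prkdc, the catalytic subunit of the DNA-dependent protein kinase that joins broken DNA ends (ENSMUSG00000022672, chromosome 16), leaned the other way. At 24h it stood at 33.0 and 37.4 CPM in shScramble and at 41.7 to 46.0 CPM in the hairpin libraries, with no overlap. At 7d shScramble had 48.4 and 50.4 CPM, shRcor2-18 had 50.3 and 74.7, and shRcor2-20 had 60.0 and 61.6 CPM, and 1 hairpin library lay between the shScramble samples. The difference was 0.32 ± 0.11 (edgeR unadjusted p = 0.0145, adjusted p = 0.998), and 0.24 ± 0.11 with the partner block. Nxpe3, a secreted protein of the neurexophilin family, stood at 0.32 ± 0.14, and at 0.16 ± 0.12 with the partner block. Anks3, a scaffold protein with ankyrin repeats, stood at -0.21 ± 0.091 and -0.15 ± 0.10. Gm5678 had 0 counts in 8 of the 12 libraries and 2.96 to 7.72 CPM in 3 shScramble libraries and sample 1 of shRcor2-18 at 24h, too few for a fold change.

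No gene of the 477 kept all 4 hairpin libraries on 1 side of both shScramble libraries at 24h and at 7d, against 0.529% of all rows. At a single time some did, such as Zfpl1 and Prkdc at 24h and Ppil2 and Cebpd at 7d. The share of all rows that does so at 1 time was not counted, so nothing is read from these.

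Several genes with wider estimates had closer levels within partner sets than within constructs. The sets were picked for closeness in these same counts, so this is no test. Robo2, a receptor that guides axons and migrating cells in response to Slit proteins (ENSMUSG00000052516, chromosome 16), had the highest difference of the named genes at 1.17 ± 0.56 (log2; edgeR unadjusted p = 0.065). At 7d it stood at 185 and 184 CPM in sample 2 of shRcor2-18 and of shRcor2-20, at 46.0 and 46.4 in sample 2 of shScramble and sample 1 of shRcor2-20, and at 23.1 and 23.1 in sample 1 of shScramble and of shRcor2-18. The 2 samples of a hairpin thus lay further apart than partners of different constructs. With the partner block its difference was 0.17 ± 0.39. Sample 2 of both hairpins forms the set without a shScramble library, so for Robo2 set and hairpin cannot be fully told apart.

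Fbxo40, the substrate receptor of a ubiquitin ligase of muscle (ENSMUSG00000047746, chromosome 16), behaved likewise in the opposite direction. At 24h it stood at 87.8 and 78.3 CPM in sample 1 of shScramble and of shRcor2-18, at 29.4 and 35.3 in sample 2 of shScramble and sample 1 of shRcor2-20, and at 18.4 and 14.1 in sample 2 of both hairpins. The difference was -0.79 ± 0.50 without and -0.09 ± 0.20 with the partner block. Hunk, a serine/threonine kinase, stood at 0.87 ± 0.48 and 0.11 ± 0.19. Fosl1, the AP-1 subunit Fra-1, stood at 0.53 ± 0.26 and 0.19 ± 0.20. Fstl1, a secreted glycoprotein of stromal cells, had 1819 and 1937 CPM in sample 2 of the hairpins at 24h and 1239 to 1376 in the other 4 libraries, and its difference was 0.31 ± 0.17 without and 0.01 ± 0.10 with the block.

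Of 413 genes with a mean of 20 CPM or more, 5 had a difference of 0.5 or more in size: Fbxo40, Cd200, Abi3bp, Robo2 and Fosl1. With the partner block 0 of the 5 did, and their median size went from 0.58 to 0.13. These 5 were picked for size without the block, and the sets for closeness in the same counts. Part of this fall was therefore built in, and it tests no cause. Cd200, a surface glycoprotein, and Abi3bp, a matrix protein, were chosen for mention after their values were seen and stood at -0.58 ± 0.36 and -0.51 ± 0.41, or at -0.06 and -0.13 with the block. Of 25 genes at 0.25 or more, 6 stayed there in the same direction with the block: Nubp1, Ppil2, Zbtb20, Sssca1, Gm28374 and Zfpl1. The plot of levels by library shows genes that stayed and genes that did not.

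**Figure D3:**
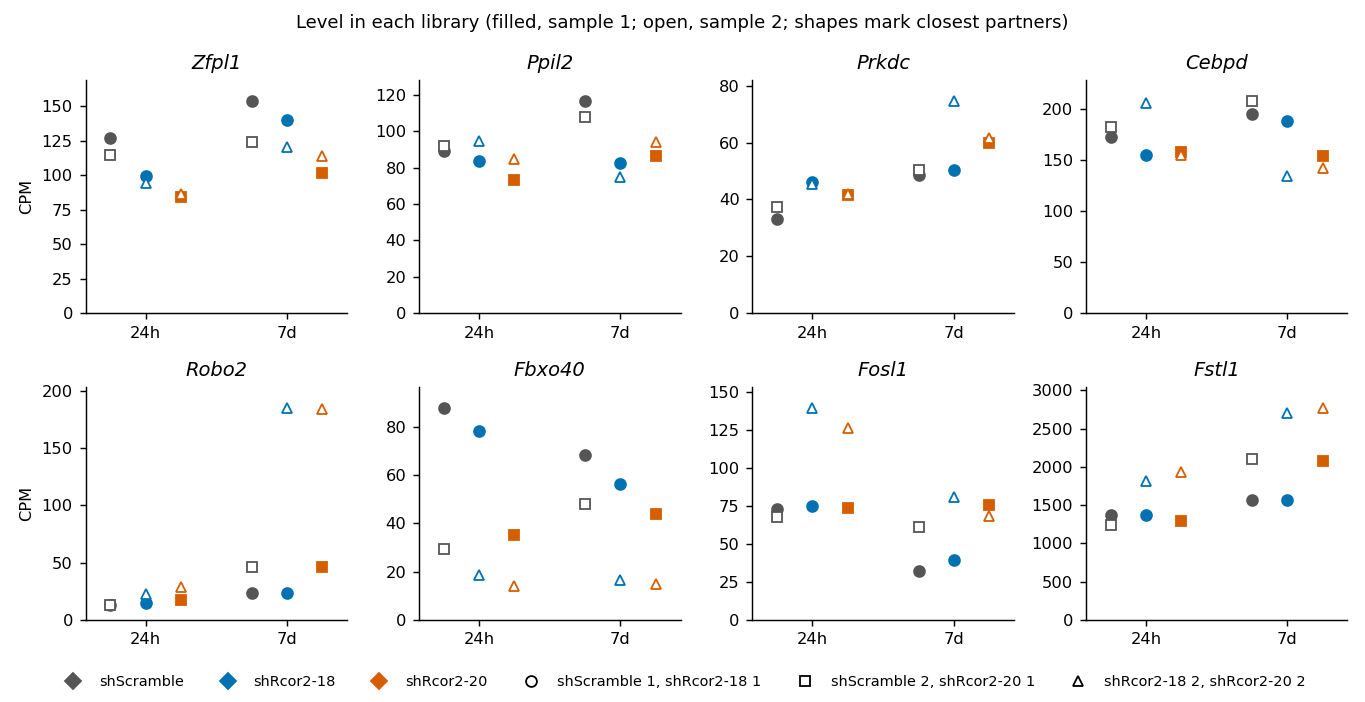
CPM of 8 genes in each of the 12 libraries, by construct (colour), time and sample (filled, sample 1; open, sample 2), with 1 marker shape for each set of closest partners; axes start at 0. For Robo2, Fbxo40, Fosl1 and Fstl1 points of 1 shape lie near each other whatever their colour, while for Zfpl1 at 24h the shScramble points at 127 and 114 CPM lie above all 4 hairpin points.

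The size limits of the difference were tight for genes with enough counts. For each gene the limit is the larger end of its 95% interval, written as a fold in either direction, and it holds for 1 gene at a time. The median limit was 1.28-fold. The limit was within 1.5-fold for 373 of the 477 genes (78.2%) and within 2-fold for 436 (91.4%), which left 41 genes for which a 2-fold difference lay inside the interval. With the partner block, whose sets were picked for closeness, the numbers were 404 and 446. When the 24h and 7d libraries of a construct and sample number were summed into 6 units, which takes them as repeats of 1 sample, they were 322 and 420, with a median limit of 1.38-fold.

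The limits were tighter at higher levels. The 259 genes with a mean of 100 CPM or more had a median limit of 1.21-fold, and 256 of them were within 2-fold. Among 154 genes at 20 to 100 CPM the median limit was 1.31-fold and 145 were within 2-fold. It was 1.73-fold for 42 genes at 5 to 20 CPM, with 31 within 2-fold, and 2.46-fold for 22 genes under 5 CPM, with 4 within 2-fold.

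The 3 tightest limits among genes at 4 or more in mean log2 CPM were those of Sf3b2, Lztr1 and Pi4ka. Sf3b2, a subunit of the SF3B complex of the spliceosome, had 2070 to 2441 CPM over the 12 libraries and a difference of -0.01 ± 0.050, with a limit of 1.09-fold. Lztr1, an adaptor for the ubiquitin ligase that removes RAS proteins, and Pi4ka, a phosphatidylinositol kinase of the plasma membrane, both had a limit of 1.10-fold. Among genes at 4 or more in mean log2 CPM, the widest limits were those of Robo2 (5.37-fold), Hunk (3.84-fold) and Fbxo40 (3.73-fold). Their differences were smaller with the partner block. Over all tested genes 3 had a limit over 8-fold, Serpind1, Gm28539 and Gm5678, chosen for mention after their values were seen. Serpind1, heparin cofactor II, had 0 counts in 5 libraries, and 16.4 to 42.8 CPM in 4 libraries spread over all 3 constructs.

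**Figure D4:**
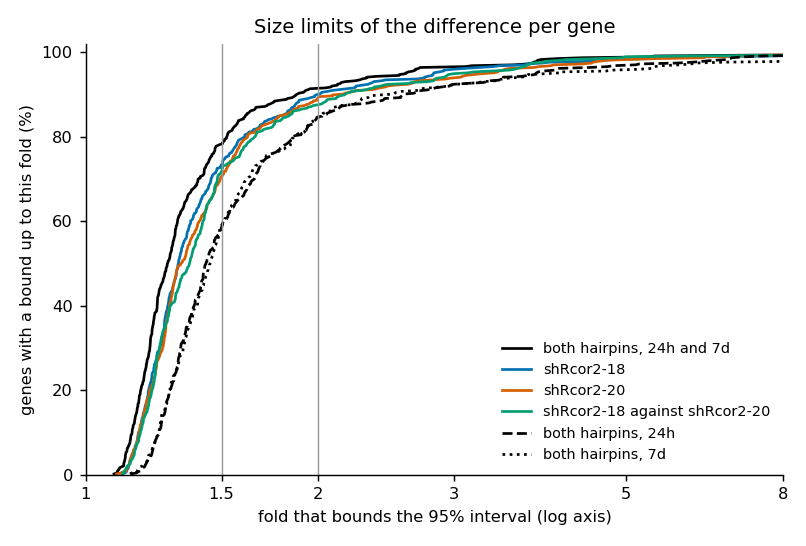
Share of the 477 tested genes (%) whose 95% interval is bounded by a given fold (log axis, ending at 8), 1 line per comparison; grey lines mark 1.5-fold and 2-fold. The line of both hairpins over both times reaches 78.2% at 1.5-fold and 91.4% at 2-fold, and the lines of the single times lie lowest.

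Each hairpin alone also gave 0 genes past adjustment in edgeR. For shRcor2-18, with 4 libraries, 2 genes were higher and 5 lower at an unadjusted p under 0.05, against 2.91% of all rows, with 0 calls by DESeq2 (9 genes unadjusted) and by limma (3 genes). For shRcor2-20, 4 were higher and 7 lower, against 3.54% of all rows, with 0 calls by limma (8 genes unadjusted, beside 375 of all rows). DESeq2 called 1 gene for shRcor2-20, Zfpl1 (13 genes unadjusted, beside 565 of all rows), which edgeR left at -0.44 ± 0.098 (unadjusted p = 0.00116, adjusted p = 0.997). The median limit was 1.32-fold for shRcor2-18 and 1.33-fold for shRcor2-20, with 429 and 426 genes within 2-fold. Under the partner block 439 and 443 genes were within 2-fold, 0 were called, and 5 and 6 had an unadjusted p under 0.05 (313 and 392 of all rows). Leaving out 1 library moved the numbers at that p, over all rows as well. For shRcor2-20 the 415 of all rows became 633 of 12709 without shScramble sample 2 at 7d. For shRcor2-18 the 7 genes became 3 without its sample 2 at either time, 4 without shScramble sample 2 at 24h, 16 and 17 without its sample 1 at 24h and 7d, and 18 without shScramble sample 1 at 7d. For shRcor2-20 the 11 became 39 without shScramble sample 2 at 7d, 17 without its sample 1 at 7d, 3 without its sample 2 at 24h, and 5 and 4 without shScramble sample 1 at 24h and 7d. These 2 comparisons share the 4 shScramble libraries, so likeness between them is not counted as agreement, and their values are set side by side.

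For the genes of lowest p, Ppil2 stood at -0.27 ± 0.12 with shRcor2-18 and -0.26 ± 0.12 with shRcor2-20. Prkdc stood at 0.36 ± 0.12 and 0.27 ± 0.12, or at 0.32 and 0.16 with the partner block. Zfpl1 stood at -0.21 ± 0.098 and -0.44 ± 0.098, and the 2 hairpins differed there by 0.23 (95% interval 0.01 to 0.45; edgeR unadjusted p = 0.041, adjusted p = 0.999), or by 0.11 with the partner block. Nubp1, which helps to assemble iron-sulfur clusters in the cytosol, stood at -0.53 ± 0.16 with shRcor2-18 and -0.08 ± 0.16 with shRcor2-20.

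Agreement of the hairpins was measured by their difference from each other, a contrast without a shScramble term. Its SE and time term still come from the fit of all 12 libraries, shScramble included. With 4 libraries each, edgeR called 0 of the 477 genes, and 6 were higher and 4 lower in shRcor2-18 at an unadjusted p under 0.05, against 3.71% of all rows. DESeq2 called 0 (14 genes unadjusted, beside 584 of all rows) and limma 0 (7 genes unadjusted, beside 296). The median size of the difference was 0.12 on the log2 scale, beside 0.087 and 0.11 for each hairpin against shScramble. These sizes were 0.061, 0.050 and 0.059 with the partner block. The median limit was 1.36-fold, with 342 genes (71.7%) bounded within 1.5-fold and 417 (87.4%) within 2-fold. The hairpins therefore differed by less than 2-fold in the interval of 417 genes, and for the other 60 a 2-fold difference between them lay inside the interval. In the fit with the partner block 437 genes were within 2-fold and 4 had an unadjusted p under 0.05. Without 1 library the 10 genes at that p became 26 without shRcor2-18 sample 2 at 24h, 19 and 20 without shScramble sample 1 or 2 at 7d, 2 without shRcor2-18 sample 1 at 24h, 6 without shScramble sample 2 at 24h, and 4 without shRcor2-18 sample 1 at 7d or shRcor2-20 sample 1 at either time.

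Libraries of the hairpins separated at both times and in the same direction for 36 genes (7.55%), 11 higher and 25 lower in shRcor2-18, against 5.52% of all rows (2.71% higher and 2.81% lower). Against shScramble the count was 11 for shRcor2-18 (2.31%, against 3.65% of all rows), with 3 higher (1.81% of all rows) and 8 lower (1.84%). It was 26 for shRcor2-20 (5.45%, against 5.57%), with 10 higher (2.86% of all rows) and 16 lower (2.71%). Within the stretches the hairpins were separated from each other in more genes than either was from shScramble. Over all rows the share was alike, 5.52% between the hairpins and 5.57% for shRcor2-20 against shScramble. The difference between these counts was not tested.

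The genes in which the hairpins stood furthest apart by p were Nubp1 and Psmd2, lower in shRcor2-18, and Zdhhc24, higher in it. Nubp1 had 52.8 and 71.5 CPM in shRcor2-18 and 94.1 and 84.6 in shRcor2-20 at 24h, and 53.0 and 56.5 against 87.9 and 54.4 at 7d, where the constructs overlapped. The difference was -0.45 ± 0.16 (edgeR unadjusted p = 0.018, adjusted p = 0.999). Psmd2, a subunit of the regulatory particle of the proteasome, differed by -0.28 ± 0.10, with a 95% interval from -0.50 to -0.06. Zdhhc24, a member of the palmitoyltransferase family, differed by 0.37 ± 0.13, with an interval from 0.07 to 0.66. Npas4, an immediate early transcription factor, differed by 1.30 ± 0.58 with an interval from 0.02 to 2.58, at levels of 2.92 to 22.3 CPM in the hairpin libraries. All 4 differences were smaller with the partner block, at -0.25 for Nubp1, -0.15 for Psmd2, 0.23 for Zdhhc24 and 0.52 for Npas4. Over 23 other settings Npas4 ran from 0.52 to 1.63, and 0 of the 4 genes was called in any.

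**Figure D5:**
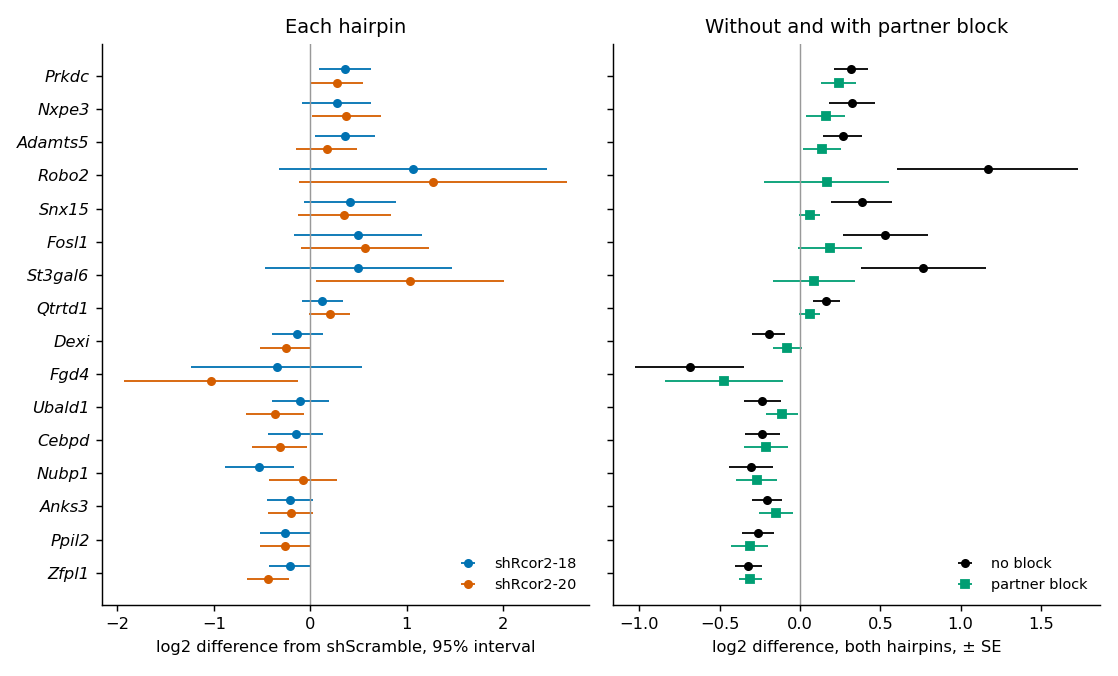
Log2 differences for the 16 genes of lowest unadjusted p, 8 in each direction: left, each hairpin against shScramble with 95% intervals; right, both hairpins with SE bars, without (circles) and with (squares) the partner block. Both hairpins share the shScramble libraries; Robo2 goes from 1.17 to 0.17 with the block, and Zfpl1 stays at -0.32 and -0.31.

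By time, 0 of the 477 genes passed at 24h and 0 at 7d in edgeR, against 0.0171% of all rows at 24h and 0.0426% at 7d. At an unadjusted p under 0.05 there were 3 higher and 1 lower at 24h (2.70% of all rows), and 1 higher and 3 lower at 7d (3.43% of all rows). DESeq2 called 0 at either time, with 4 genes unadjusted at each, beside 388 of all rows at 24h and 483 at 7d. The median limit was 1.43-fold at 24h and 1.45-fold at 7d, and 404 and 403 genes were within 2-fold. The change of the difference from 24h to 7d was called in 0 of the 477 genes, against 0.0597% of all rows, with 3 genes unadjusted (3.10% of all rows). DESeq2 called 0 for the change (3 genes unadjusted, beside 457 of all rows). The median limit of the change was 1.65-fold, and 342 genes were within 2-fold, so the change between times is the least bounded of these values. With the partner block 426 genes were within 2-fold at 24h, 420 at 7d and 379 for the change, with 0 called. At an unadjusted p under 0.05 there were 6, 4 and 4 genes (341, 398 and 398 of all rows). The median size was 0.077 at 24h, 0.078 at 7d and 0.12 for the change. Numbers at that p again moved when single libraries were left out, over the 477 genes and over all rows. At 24h the 4 genes became 13 without shRcor2-18 sample 1 and 2 without shScramble sample 1 of that time. At 7d the 4 became 20 and 21 without shScramble sample 1 or 2 of that time, 9 and 8 without sample 1 of shRcor2-18 or shRcor2-20, and 1 and 2 without their sample 2; they became 2 without shScramble sample 1 or 2 at 24h. For the change the 3 became 13 and 10 without shScramble sample 1 or 2 at 7d, 5 without shRcor2-18 sample 1 at 24h, and 1 without shRcor2-18 sample 2 at 7d.

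Cnih2, an auxiliary protein of glutamate receptors, had the widest change of the genes of lowest p, from 0.91 ± 0.36 at 24h to -0.68 ± 0.35 at 7d, at 2.70 to 12.7 CPM. Arl6, a small GTPase of the cilium, went from 0.50 ± 0.16 to -0.04 ± 0.16. Cebpd, a transcription factor that glucocorticoids induce, stood at -0.08 ± 0.16 at 24h and -0.38 ± 0.16 at 7d. Its 4 hairpin libraries had 135 to 188 CPM at 7d and shScramble had 195 and 207. Gstp2, a glutathione transferase, stood at -0.12 ± 0.12 and 0.26 ± 0.12, and its reads can be split with its near copy Gstp1, so its values are uncertain.

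Gene lists relevant to a corepressor were then read against these limits. In bulk RNA, fewer cells of a type and less RNA per cell cannot be told apart. Of 19 chromatin and transcription coregulators in the stretches 18 were tested, 0 rose or fell past adjustment in edgeR, 0 had an unadjusted p under 0.05, and all 18 tested were bounded within 2-fold. Their median difference was -0.01, as it was over all 477 genes. The demethylase Kdm2a stood at 0.04 ± 0.083 and Dpf2, a subunit of BAF chromatin remodellers, at 0.02 ± 0.068. Snai2, a SNAIL-family repressor named here after its values were seen, had 105 and 151 CPM in shScramble at 24h, 96.6 and 176 in shRcor2-18, and 150 and 196 in shRcor2-20. Its difference was 0.23 ± 0.23 with a limit of 1.66-fold.

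Of 28 neuronal genes in the stretches only 9 passed the filter, and 8 had 0 counts in all 12 libraries: Grin2a, Drd3, Epha3, Epha6, Htr1f, Ncam2, Olig1 and Olig2. A count of 0 allows up to 3 counts, which is 0.489 to 0.856 CPM in these libraries and covers counting error only. These 8 neuronal genes were thus at 0 with the hairpins as with shScramble. Of the 9 tested, 0 were called and 0 had an unadjusted p under 0.05 in edgeR, with a median of 0.05. The most abundant were App, the amyloid precursor protein, at 0.13 ± 0.14, and Septin5, under its older symbol Sept5, at 0.05 ± 0.088. The list's summed level was 1184 to 1717 CPM in the hairpin libraries and 1205 to 1599 CPM in shScramble.

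Genes of bone, matrix and stroma gave 17 tested of 18, with 0 called in edgeR, 0 at an unadjusted p under 0.05 and 16 within 2-fold. Lrp5, the coreceptor through which Wnt ligands raise bone mass, stood at -0.05 ± 0.080 and Efemp2, a protein of elastic fibres, at 0.02 ± 0.089. Adamts1, a protease that cleaves proteoglycans, stood at -0.01 ± 0.21, and its relative Adamts5 at 0.26 ± 0.12, or 0.14 ± 0.12 with the partner block. Of 11 genes of Wnt, Notch, BMP and TGF-beta signalling 11 were tested, 0 were called, 0 had an unadjusted p under 0.05 and 10 were within 2-fold, Ltbp3, a latent TGF-beta binding protein, at -0.18 ± 0.15 and Vasn at -0.09 ± 0.067. Of 13 hormone-responsive and immediate early regulators 13 were tested with 0 called and 0 at that p, among them Rela, a subunit of NF-kappaB, at -0.12 ± 0.072 and Bcl6, a repressor, at -0.23 ± 0.16.

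Growth and housekeeping lists likewise held no called gene in edgeR. Of 15 genes of DNA replication, repair and mitosis 15 were tested, 0 were called by edgeR, 1 had an unadjusted p under 0.05 (Prkdc) and 15 were within 2-fold. Their median was 0.08. The helicase subunit Mcm4 stood at 0.15 ± 0.24, and at 0.01 ± 0.099 with the partner block. In the translation, proteasome and folding list 18 of 18 were tested and within 2-fold, with 0 called, 0 at an unadjusted p under 0.05 and a median of 0.05. Among mitochondrial and metabolic genes 23 of 24 were tested, 22 were within 2-fold, 0 were called and 0 had an unadjusted p under 0.05. Of 14 cytoskeletal and contractile genes 13 were tested and within 2-fold, with 0 called and 0 at that p. Cfl1, the actin-severing protein cofilin, stood at -0.06 ± 0.064.

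Hairpin constructs can also act through the interferon response or through the small RNA machinery, and both were read on the same scale. Of 11 genes of the interferon response and its receptors 10 were tested, with 0 called, 0 at an unadjusted p under 0.05 and 9 within 2-fold. The receptor chain Ifnar1 stood at -0.04 ± 0.072, and the interferon-stimulated genes Parp9 and Dtx3l at -0.04 ± 0.13 and 0.02 ± 0.18. Rtp4, another interferon-stimulated gene, stood at -0.86 ± 0.38 with shRcor2-18 (edgeR unadjusted p = 0.046) and -0.05 ± 0.37 with shRcor2-20, and at -0.30 with shRcor2-18 in the fit with the partner block. At 24h it had 52.6 and 59.6 CPM in sample 2 of shScramble and sample 1 of shRcor2-20, partners, and 18.9 to 22.3 CPM in the other 4 libraries. The microRNA factor Dgcr8 stood at 0.12 ± 0.070, the deadenylase Parn at -0.07 ± 0.093 and Marf1 at -0.04 ± 0.072, all 3 of 3 tested within 1.5-fold.

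Markers of other cell types had overlapping summed levels in the hairpin and shScramble libraries. Of 8 lymphocyte markers 3 were tested and 2 had 0 counts in all libraries. Their summed level was 170 to 299 CPM in the hairpin and 169 to 301 CPM in the shScramble libraries, most of it on the row of Cd80. Of 9 epithelial markers 4 were tested and 2 were at 0, with sums of 280 to 598 and 302 to 580 CPM, most of it on the row of Trp63. Of 9 liver markers 3 were tested and 2 were at 0, with sums of 238 to 528 and 279 to 508 CPM, most of it on the row of Masp1. Of 6 muscle markers 4 were tested, with sums of 136 to 227 and 124 to 229 CPM. The 1 adipocyte marker, Adipoq, had at most 0.67 CPM. In these 5 lists 0 genes were called by edgeR and 0 had an unadjusted p under 0.05, and their part in any difference above was not tested.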

How the data were processed

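The authors deposited 1 table of whole-number read counts per gene for the series. Per the submitters' processing notes, the tools were FastQC, TopHat2 2.0.9, DESeq and DESeq2, and the build was mm9. Which program counted the reads, with which annotation and whether by strand, is not given in the sources used here, so reads of overlapping genes cannot be told apart. Reads were 100 bp long, per the labels. The identifiers are of a later build than mm9, so no coordinates are printed. GENCODE vM21 gave names, gene types and gene order for 39547 rows (97.4%), and 716 of the 744 stretch genes had the same symbol there.

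From the counts, edgeR 4.0.16 in R 4.3.3 (filterByExpr over 6 groups, TMM, robust quasi-likelihood) was fitted on all rows of the 12 libraries with construct and time as terms (8 residual degrees of freedom), and with 6 group means for the single times and their difference (6 residual degrees of freedom). p-values were adjusted by Benjamini-Hochberg over 11724 rows, with a threshold of 0.05. The SE is the log2 difference divided by the square root of F, and the 95% interval uses the t distribution of that fit. CPM are TMM-scaled. The fit treats the 24h and 7d libraries as independent. Differences of sample 1 from sample 2 correlated between 24h and 7d at 0.49 in shScramble, 0.47 in shRcor2-18 and 0.41 in shRcor2-20, so a fit with construct and sample number as a block (6 blocks) was added after the data were examined, for the change over time only. Precision is limited by 2 samples per group and by totals of 3504808 to 6139315 counts.

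Alternatives were RLE size factors, library size only, no filter beyond 1 count, a stricter filter (5 CPM in 2 libraries), DESeq2 1.42.0, limma 3.58.1 with duplicateCorrelation, stretch genes only, 6 group means, summed times, a replicate block, the partner block and each library left out. The contrast of 7d with 24h was added after the data were examined. Genes named were those of lowest unadjusted p (8 per direction for both hairpins together, 4 for each other comparison) at 1 or more in mean log2 CPM and without placeholder names, the 3 tightest and 3 widest limits among genes at 4 or more on that scale, and up to 4 members of each of 16 lists by level; exceptions are marked in the text. The stretches, the partner block, the lists and the genes in them were chosen with earlier results of these data known. Libraries at 0h were left out, since no comparison above uses them.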

Additional observations from a re-analysis of the deposited data

Results flagged for a closer look

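Of the 11724 rows tested, 7 passed adjustment for a change of the hairpin difference from 24h to 7d in edgeR's interaction test, and 0 of the 7 are stretch genes. With construct and sample number as a block over both times 1 row passed. In each of the 7 rows both shScramble libraries of 1 time held far less than the other 10 libraries. In 2 rows these were the shScramble libraries of 24h, at 0 to 0.593 CPM against 17 to 80.1 CPM elsewhere. In the other 5 they were those of 7d, at 0 to 8.50 CPM against 5.91 to 71.8 CPM elsewhere. The names of these rows are not taken as genes, and no fold is given.

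Rows under 1 CPM in every library of a group and at 5 CPM or more in every other library, a rule chosen after the data were examined, numbered 2 for shScramble, 2 for shRcor2-18 and 1 for shRcor2-20 at 24h, and 4, 0 and 1 at 7d, with 0 in the stretches. Pairs of libraries of the same group shared 0 to 4 such rows, and pairs of different constructs at 1 time shared 0 to 7. The 7 were in sample 1 of shScramble and of shRcor2-18 at 24h, which are partners. The other partner pairs shared 0 to 3. Sample 1 of shScramble and sample 2 of shRcor2-20 at 7d, which are not partners, shared 5. The cause was not tested.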

How the results depend on the processing

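In all 7 hairpin comparisons edgeR's count of 0 called stretch genes held under 23 alternatives (20 for the single times and their change, and the added block of construct and number for the change), except that DESeq2 called 1 gene, Zfpl1, for shRcor2-20. Counts over all rows moved more. DESeq2 called 5 rows for both hairpins, 24 for shRcor2-18, 18 for shRcor2-20, 35 between the hairpins, 31 at 24h, 31 at 7d and 35 for the change, and 6 group means called 6, 8 and 6 in the first 3, against 0, 0, 0, 0, 2, 5 and 7 in the fits reported. Summed times called 1 row in each of the first 3. No filter beyond 1 count called 1 for shRcor2-18, 1 for shRcor2-20 and 2 between the hairpins. The partner block called 2 for shRcor2-18, 0 at 7d and 1 for the change. Fits of stretch genes only gave 0 at 24h, 7d and for the change, since those called rows lie outside. The cause of the other shifts was not tested.

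Leaving out 1 library gave 0 to 1 rows for both hairpins, 0 to 3 for shRcor2-18, 0 to 3 for shRcor2-20 and 0 to 2 between them, the highest without shRcor2-20 sample 1 at 7d. The ranges were 2 to 12 at 24h (12 without shScramble sample 2 at 24h), 5 to 17 at 7d (17 and 12 without shScramble sample 1 or 2 at 7d, 8 without sample 1 of either hairpin at 7d) and 4 to 19 for the change (19 without shScramble sample 1 at 7d, 13 without sample 2 at 24h). At 24h, 4 rows were called without shScramble sample 1 or sample 2 of either hairpin.

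Genes bounded within 1.5-fold were 84.7% with the partner block, 67.5% with summed times and 72.3% to 78.6% without 1 library, and within 2-fold 88.1% with summed times. The 64 stretch genes called from 24h to 7d were 107 with DESeq2, 109 with stretch genes only, 112 with the partner block, 38 with no filter beyond 1 count and 28 to 49 without 1 library, the lowest without shRcor2-20 sample 1 at 24h.

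The labels do not say that sample numbers pair the constructs. Differences of sample 1 from sample 2 correlated over 455 genes at 0.35 (shScramble with shRcor2-18), -0.12 (shScramble with shRcor2-20) and 0.40 (shRcor2-18 with shRcor2-20) at 24h, and at 0.39, 0.068 and 0.23 at 7d. Of the 3 partner pairs 2 carry the same number and 1 does not, so the number was not taken as pairing all constructs. With construct and number as a block over both times, 0 stretch genes and 1 row were called for the change, and 20 stretch genes from 24h to 7d. With the number as a replicate block 0 stretch genes were called in every hairpin comparison and 86 from 24h to 7d, genes at an unadjusted p under 0.05 numbered 24 for both hairpins, 42 for shRcor2-20 and 22 between the hairpins, and over all rows 0 for both hairpins, 2 at 24h, 5 at 7d and 6 for the change. For 41 genes a 2-fold difference lies within the interval, 18 of them under 5 CPM. The cause of these wide limits was not tested.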
